A study of Mus musculus with 8 samples.

Results

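The choroid plexus is the tissue in the brain ventricles that secretes cerebrospinal fluid, and its epithelium does so by moving sodium, potassium, chloride and bicarbonate across the cell, with water following. The genes described here are 8 ion channel, carbonic anhydrase, bicarbonate and water transport genes of that epithelium, chosen by symbol from a list, and all 8 of 8 were present among the 24924 genes of the count table. The list was Kcnj13, Kcne2, Aqp1, Clic6, Slc4a5, Slc4a2, Slc12a2 and Car12. They were measured in RNA of sorted brain T cells and sorted microglia, neither of which is choroid plexus epithelium, and which cells the transcripts came from was not tested.

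The 8 libraries formed 4 groups of 2, all from C57BL/6 mice aged 20 to 22 months: T cells after IL-5, T cells after PBS, microglia after IL-5 and microglia after PBS. Interleukin-5 (IL-5) is a cytokine that acts mainly on eosinophils and B cells, and it was injected at 2 µg daily for 2 days, with phosphate-buffered saline (PBS) as the control. The cells came from the brain and were sorted by surface markers that the labels do not list. Whether the libraries are of different mice is not stated in the labels, and p-values therefore measure only the spread between these samples, which may be technical. Levels are gene counts scaled to a library total of 1000000 (CPM), and a log2 fold change of 1 is a ratio of 2.

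Among the 8 genes, Kcnj13 encodes an inward rectifier potassium channel of the apical membrane, and Kcne2 a small accessory subunit of voltage-gated potassium channels. Clic6 belongs to the chloride intracellular channel family. Slc12a2 encodes the sodium-potassium-chloride cotransporter, Slc4a5 an electrogenic sodium bicarbonate cotransporter, and Slc4a2 an anion exchanger that swaps chloride for bicarbonate. Car12 is a membrane-bound carbonic anhydrase, which interconverts carbon dioxide and bicarbonate, and Aqp1 is a water channel. Kcnj13, Kcne2, Clic6 and Slc4a5 are strongly associated with choroid plexus in the brain, whereas Slc4a2 and Slc12a2 are used by many cell types and Aqp1 is also known from red blood cells and capillary endothelium of other organs.

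In GENCODE M21 (GRCm38) Kcnj13 lies on chromosome 1 from 87386363 to 87394729 on the minus strand. It sits inside Gigyf2, which runs on the opposite strand and whose exons cover 49.1% of the exonic length of Kcnj13. Kcne2 (chromosome 16, 92292389 to 92298129) and Clic6 (chromosome 16, 92485736 to 92541243) are neighbours on the plus strand, 187.6 kb apart with 4 protein-coding genes between them. Aqp1 (55336432 to 55348555) and Slc4a5 (83219828 to 83304945) are both on chromosome 6 but 27871.3 kb apart. Slc4a2 is on chromosome 5 from 24423837 to 24440950, and Car12 on chromosome 9 from 66713686 to 66766845. The 3' part of Slc4a2 overlaps Fastk on the opposite strand over 13.7% of its exonic length. The strand setting of the counting is not given in the sources used here, so reads of Kcnj13 and Gigyf2, and of Slc4a2 and Fastk, cannot be told apart where they overlap. Clic6 also spans part of 2410124H12Rik on its own strand, with 0 shared exonic bases.

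The sequences upstream of Kcnj13, Kcne2 and Car12 are shown because Kcnj13 and Car12 were the genes past the threshold between the sorted populations and Kcne2 was, next to Kcnj13, the most abundant per length. They are the 250 bases before a RefSeq transcription start (GRCm38.p6), read 5' to 3' on the strand of the gene. Capitals mark matches to TATAAA (the TATA box) or to TGACGT (the core of a cAMP response element) on either strand.
Kcnj13, chr1:87394730-87394979, minus strand: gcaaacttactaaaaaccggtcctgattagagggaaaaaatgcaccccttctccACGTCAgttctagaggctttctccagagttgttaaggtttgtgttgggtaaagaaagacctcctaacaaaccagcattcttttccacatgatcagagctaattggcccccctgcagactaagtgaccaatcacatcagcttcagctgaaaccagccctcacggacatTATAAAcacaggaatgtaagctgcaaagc
Kcne2, chr16:92292139-92292388, plus strand: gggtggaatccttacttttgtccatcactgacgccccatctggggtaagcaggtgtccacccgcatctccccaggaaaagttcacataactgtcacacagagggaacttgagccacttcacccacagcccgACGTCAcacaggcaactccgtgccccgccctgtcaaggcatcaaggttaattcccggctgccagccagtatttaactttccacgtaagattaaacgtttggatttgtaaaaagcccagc
Car12, chr9:66713436-66713685, plus strand: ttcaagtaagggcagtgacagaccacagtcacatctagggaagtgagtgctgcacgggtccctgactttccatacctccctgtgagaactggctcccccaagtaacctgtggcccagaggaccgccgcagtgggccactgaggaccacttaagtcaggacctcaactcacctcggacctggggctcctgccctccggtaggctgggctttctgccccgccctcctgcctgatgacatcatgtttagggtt

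Kcnj13 carried a TATAAA match that starts 29 bases before the transcription start, and a TGACGT match on the reverse strand that starts 196 bases before it. The printed Kcne2 window carried a TGACGT match on the reverse strand that starts 119 bases before that start, and the Car12 window held neither motif. Kcne2 has a further RefSeq window, chr16:92295366-92295615, which is not printed and held 0 matches. Over the 8 RefSeq windows of 6 of the genes, with Clic6 and Slc12a2 not searched, 2 held TATAAA and 2 held TGACGT on either strand. The TATAAA match of Slc4a5 was on the reverse strand, 127 bases before the start, in a window with 103 bases in its own exons. Among 32851 mouse windows of the same length these shares were 12.4% for TATAAA and 6.47% for TGACGT. The core bound by the choroid plexus homeodomain factor OTX2, written TAATCC, was found in 0 of the 8 windows and in 6.25% of all windows. A match describes letters in the sequence and is not a measured binding site.

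The libraries held 23536908 to 30423828 counts in genes, so 1 count stood for 0.0329 to 0.0425 CPM, and each of the 8 genes had at least 150 counts in every library. On principal components of log2 CPM, microglia IL-5 replicate 1 stood apart on the second (-196.7, against -80.9 to 93.8 in the others) and T cells IL-5 replicate 1 on the third (180.5, against -114.2 to 32). Summed T cell markers, led by Cd3g and Cd8b1, were 3495 to 6357 CPM in T cells and 11.3 to 148.5 CPM in microglia. The microglia marker Tmem119 was 0 to 1.515 CPM in T cells and 1444 to 4824 CPM in microglia. Summed choroid plexus epithelium markers of 15 genes, led by the thyroid hormone carrier Ttr and the lysophospholipase Enpp2, were 59861 to 117600 CPM in T cells and 36714 to 65109 CPM in microglia. Of the 15 genes, 0 were at 0 in all libraries of a cell type. Lmx1a had 0 counts in microglia IL-5 replicate 1 and in microglia PBS replicate 2. Ependymal sums (led by Mia and Tmem212) were 133.6 to 416.8 CPM in T cells and 151.3 to 421.1 CPM in microglia, and endothelial sums (Ly6c1, Cldn5) 1153 to 2100 CPM in T cells and 836.4 to 1294 CPM in microglia. The myelin gene Mbp, an oligodendrocyte marker, was 387.7 to 769.2 CPM in T cells and 39.8 to 433.3 CPM in microglia. Astrocyte sums (Aldoc, Slc1a3) were 146.2 to 293.6 CPM in T cells and 110.3 to 212.6 CPM in microglia. Stroma sums (Pdgfrb, Col1a2) were 40.1 to 119.6 CPM in T cells and 26.7 to 54.8 CPM in microglia. Of the erythroid markers, Alas2 was 0.067 to 102.1 CPM in T cells and 7.07 to 23.6 CPM in microglia, Slc4a1 was 0 to 16.7 CPM in T cells and 0.918 to 13.4 CPM in microglia, and 4 adult globin genes were listed at 0 in every library.

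**Figure D1:**
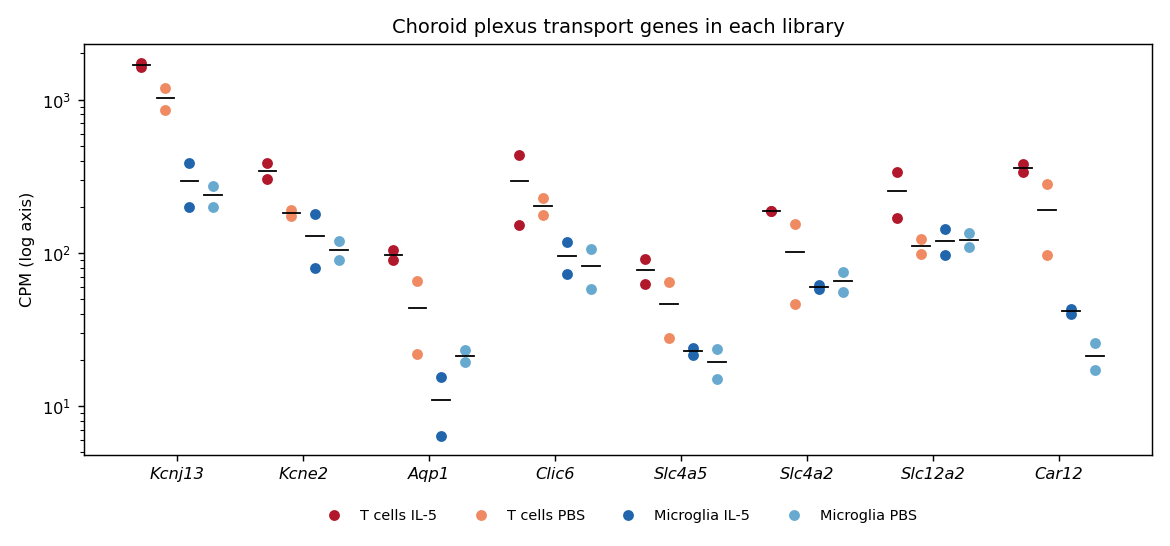
CPM (log axis) of the 8 transport genes, with a point for each library, a short line at the mean of each group, and the groups in the order T cells IL-5, T cells PBS, microglia IL-5 and microglia PBS. Kcnj13 spans 855 to 1741 CPM in the T cell libraries and 200.3 to 388 CPM in the microglia libraries, and the lowest value of the plot is that of Aqp1 in a microglia IL-5 library, at 6.37 CPM.

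Of the potassium channel genes, Kcnj13 was the most abundant member in every library. It measured 1634 and 1741 CPM in T cells after IL-5 and 1182 and 855 CPM in T cells after PBS, with 200.3 and 388 CPM in microglia after IL-5 and 273.1 and 200.3 CPM in microglia after PBS. The 4 groups followed that order, and only the microglia groups overlapped each other. The overlapping gene Gigyf2, a translational regulator, was far lower, at 31.5 to 81.2 CPM in T cells and 15.8 to 22.2 CPM in microglia. Kcne2 measured 387 and 301.4 CPM in T cells after IL-5 and 172.6 and 191.4 CPM in T cells after PBS, with 80.1 and 178.6 CPM in microglia after IL-5 and 119.2 and 90.1 CPM in microglia after PBS. T cells after IL-5 lay above every other library, while the remaining groups overlapped at their neighbours.

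The chloride handling genes differed in their spread. Clic6 measured 151.3 and 433.2 CPM in T cells after IL-5 and 177.5 and 227.1 CPM in T cells after PBS, with 72.6 and 117.8 CPM in microglia after IL-5 and 106.5 and 58.2 CPM in microglia after PBS. All T cell libraries lay above all microglia libraries in CPM, which held for 4 of the 8 genes and for 25.9% of all genes tested on that scale (the reverse held for 0 of the 8 genes and for 8.14% of all). Within each cell type the treatments overlapped. Slc12a2, on chromosome 18 from 57878678 to 57946821, measured 335 and 169 CPM in T cells after IL-5 and 98.4 and 123.1 CPM in T cells after PBS, with 142 and 96.9 CPM in microglia after IL-5 and 135.4 and 108.3 CPM in microglia after PBS. Only T cells after IL-5 stood above the rest, and the other 3 groups shared a range.

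Among the bicarbonate and acid-base genes, Car12 separated the groups most clearly. It measured 338.3 and 379.1 CPM in T cells after IL-5 and 283.1 and 96.1 CPM in T cells after PBS, with 40.0 and 43.3 CPM in microglia after IL-5 and 17.1 and 25.6 CPM in microglia after PBS. No group overlapped its neighbour in that order. Slc4a5 measured 62.9 and 91.7 CPM in T cells after IL-5 and 64.1 and 27.9 CPM in T cells after PBS, with 21.4 and 24.0 CPM in microglia after IL-5 and 23.4 and 15.1 CPM in microglia after PBS. Its T cell libraries were all above its microglia libraries, and the treatments overlapped within each cell type. Slc4a2 measured 188.4 and 187.8 CPM in T cells after IL-5 and 154.8 and 46.2 CPM in T cells after PBS, with 61.99 and 58.2 CPM in microglia after IL-5 and 75.3 and 55.2 CPM in microglia after PBS. T cells PBS replicate 2 was the lowest library of all for Slc4a2, below every microglia library. Fastk, which overlaps Slc4a2, ranged from 46.5 to 74.7 CPM in T cells and from 49.4 to 92.8 CPM in microglia, close to the level of Slc4a2 in microglia.

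The water channel gene Aqp1 measured 104.4 and 89.8 CPM in T cells after IL-5 and 21.8 and 65.8 CPM in T cells after PBS, with 6.37 and 15.5 CPM in microglia after IL-5 and 19.4 and 23.2 CPM in microglia after PBS. T cells after IL-5 were highest and microglia after IL-5 lowest, and the PBS groups of both cell types overlapped. Per kilobase of exonic length in GENCODE M21, which may differ from the authors' annotation, the mean level over the 4 T cell libraries was 1065 ± 324 CPM per kb for Kcnj13, 148.9 ± 56.7 for Kcne2, 63.2 ± 32.7 for Clic6 and 36.1 ± 16.5 for Car12 (SD, n = 4). Aqp1 followed at 26.8 ± 13.8 CPM per kb, Slc4a2 at 17.3 ± 8.08, Slc12a2 at 16.6 ± 9.75 and Slc4a5 at 10.6 ± 4.51 (SD, n = 4 T cell libraries). In microglia Kcnj13 and Kcne2 were also first, at 209 ± 69.8 and 66.2 ± 25.1 CPM per kb, and Car12 and Slc4a5 were last, at 4.15 ± 1.62 and 3.61 ± 0.71 CPM per kb (SD, n = 4).

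The comparison of T cells with microglia, over both treatments, asked where the transport transcripts were more abundant. Kcnj13 and Car12 were higher in T cells, and the other 6 genes did not pass. Counts were scaled by TMM, which sets the libraries to a common level over most genes, and tested with edgeR's quasi-likelihood test with Benjamini-Hochberg adjustment over 15397 genes at a threshold of 0.05. Of the 8 genes 2 were called higher and 0 lower, where 8.05% of all genes tested were called higher and 11.4% lower. The median log2 fold change of the 8 genes was 0.72, and that of all genes tested 0.17.

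Kcnj13 averaged 1353 ± 411 CPM in T cells and 265.4 ± 88.7 CPM in microglia (SD, n = 4 libraries each), with a log2 fold change of 1.57 (SE 0.25, edgeR adjusted p = 0.0029). Car12 averaged 274.2 ± 125.1 CPM in T cells and 31.5 ± 12.3 CPM in microglia (SD, n = 4 each), with a log2 fold change of 2.36 (SE 0.37, edgeR adjusted p = 0.00257). Both genes stayed past the threshold when each library was left out in turn, with log2 fold changes of 1.37 to 1.67 for Kcnj13 and 1.87 to 2.65 for Car12. They also passed within the PBS libraries alone (1.41 for Kcnj13 and 2.45 for Car12) and within the IL-5 libraries alone (1.73 for Kcnj13 and 2.26 for Car12). Without both libraries that stood apart, a setting chosen after the data were seen, the values were 1.39 and 2.41 and passed.

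For Aqp1 the value of 1.36 (SE 0.48) missed the threshold with an edgeR adjusted p of 0.0788. It passed in DESeq2 (adjusted p = 0.027) and without T cells PBS replicate 1 (1.66, edgeR adjusted p = 0.0425), and was 0.35 within the PBS libraries and 2.38 within the IL-5 libraries. Slc4a5 (0.74, SE 0.43), Clic6 (0.70, SE 0.36), Kcne2 (0.37, SE 0.27) and Slc4a2 (0.36, SE 0.38) had positive values short of the threshold, and Slc12a2 a negative value (-0.32, SE 0.32). On the TMM scale all T cell libraries lay above all microglia libraries for 2 of the 8 genes, Kcnj13 and Car12, where 14.0% of all genes did so.

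The scaling of the libraries sets part of these values, because the TMM factors were 1.27 to 1.32 in T cells and 0.638 to 0.819 in microglia. With scaling by library size alone the median of all genes was 0.91 in place of 0.17. On that scale 6 of the 8 genes were called higher and 0 lower, against 18.1% and 5.64% of all genes, with the calls of Kcne2 (1.11), Aqp1 (2.10), Clic6 (1.46) and Slc4a5 (1.51) added. Slc12a2 turned to 0.47 on that scale and Slc4a2 reached 1.14, neither past the threshold (edgeR adjusted p = 0.279 and 0.064). The calls over all genes were then 2790 higher and 868 lower, against 1240 higher and 1753 lower with TMM.

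**Figure D2:**
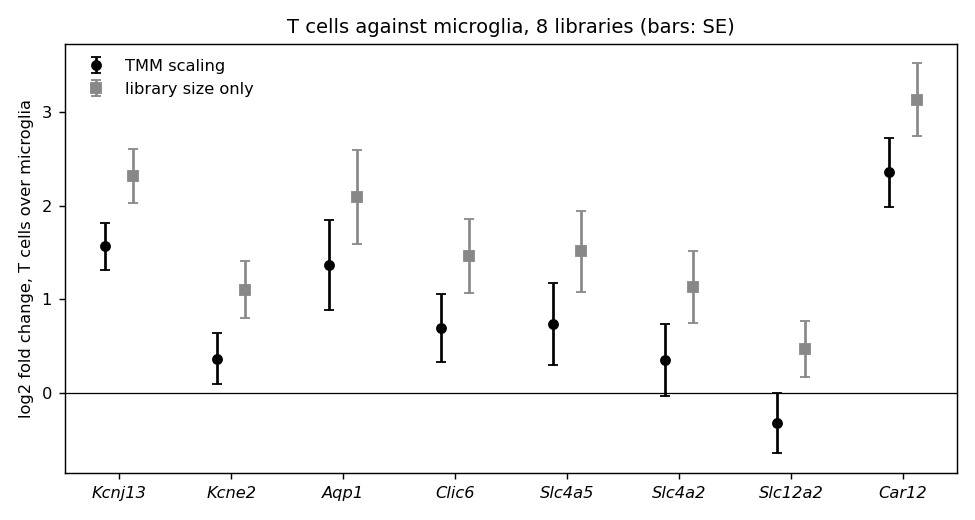
Log2 fold change of T cells over microglia (vertical axis) for the 8 genes, from the fit of all 8 libraries, with TMM scaling as black circles and library size only as grey squares, and bars of 1 SE. Kcnj13 and Car12 are the genes past the threshold with TMM, at 1.57 and 2.36, and Slc12a2 changes sign between the scalings.

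Markers of other cell types moved with the comparison of the sorted populations. Choroid plexus markers were called higher in T cells for 6 of 15 genes, endothelial markers for 4 of 7 (with 1 lower) and astrocyte markers for 1 of 6 (with 1 lower). Of all genes tested 8.05% were called higher and 11.4% lower. For ependymal and stromal markers 0 were called in edgeR (2 of 6 of each list had an unadjusted p under 0.05). The part of these cell types in the result was not tested.

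A ratio to Ttr, the most abundant of the choroid plexus markers, does not depend on how libraries are scaled. In T cells Kcnj13 stood at 181.5 and 190.3 counts per 10000 Ttr counts after IL-5 and at 181.7 and 189.7 after PBS, a 1.05-fold range over 4 libraries. In microglia the ratio was lower and less even, at 35.8 and 65.5 after IL-5 and 68.4 and 59.8 after PBS. The mean Kcnj13 ratio was 3.24-fold higher in T cells than in microglia and the libraries did not overlap.

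Car12 stood at 21.3 to 43.5 counts per 10000 Ttr counts in T cells and at 4.29 to 7.64 in microglia, a 5.45-fold higher mean without overlap. Slc4a5 was also without overlap, at 6.18 to 10.02 in T cells and 3.83 to 5.86 in microglia (1.81-fold). The ratios of the other genes overlapped, with T cell over microglia means of 2.53-fold for Aqp1, 1.84-fold for Clic6, 1.43-fold for Kcne2, 1.34-fold for Slc4a2 and 0.91-fold for Slc12a2. For 3 of the 8 genes all T cell ratios lay above all microglia ratios, where 11.9% of all genes tested did so on this scale, and the reverse held for 0 of the 8 genes and 10.9% of all. Ttr itself measured 45089 to 91511 CPM in T cells and 33495 to 59213 CPM in microglia, with a log2 fold change of -0.15 (SE 0.24, edgeR adjusted p = 0.718). In a CPM level of bulk RNA, fewer cells of a type and less RNA per cell cannot be told apart. No test of the ratios to Ttr was made, and the cause of their differences was not tested.

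**Figure D3:**
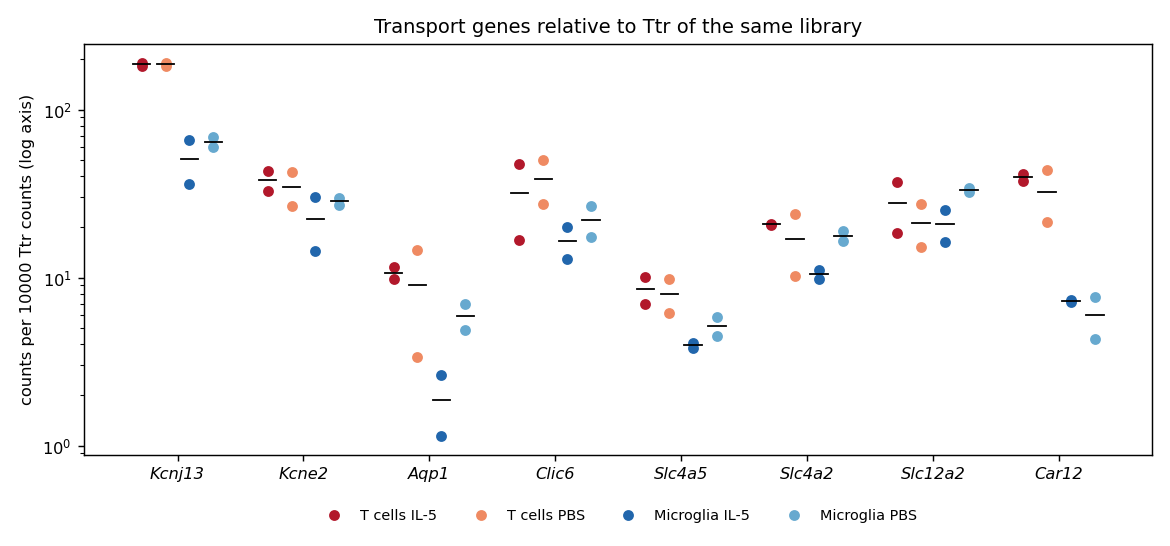
Counts of each transport gene per 10000 Ttr counts of the same library (log axis), with a point for each library and a short line at each group mean. Kcnj13 lies between 181.5 and 190.3 in all T cell libraries and between 35.8 and 68.4 in the microglia libraries.

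The comparison of IL-5 with PBS within T cells asked whether the transcripts differed after the injected cytokine. With TMM scaling all 8 genes had a positive log2 fold change with a median of 0.95 (per Ttr count 7 were higher and Clic6 lower), where the median of all genes tested was -0.01, but none passed the test: edgeR called 0 of 8, as it called 0% of all 13897 genes (600 of which had an unadjusted p under 0.05). Slc12a2 had the largest value at 1.24 (SE 0.38), followed by Aqp1 at 1.20 (SE 0.58), Kcne2 at 0.97 (SE 0.23), Car12 at 0.96 (SE 0.50) and Slc4a2 at 0.95 (SE 0.56). Slc4a5 had 0.79 (SE 0.54), Kcnj13 0.77 (SE 0.20) and Clic6 0.58 (SE 0.49). For each of the 8 genes the edgeR adjusted p was 0.9999, and 3 had an unadjusted p under 0.05, Kcne2, Kcnj13 and Slc12a2. On TMM-scaled values 7 of 8 genes had no overlap, with IL-5 on top and Clic6 as the exception, where 18.1% of all genes showed this. For Slc4a5 this separation was lost in plain CPM, where 62.9 CPM after IL-5 fell within the PBS range.

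DESeq2 called Kcnj13 (0.77, DESeq2 adjusted p = 0.0136) and Kcne2 (0.97, DESeq2 adjusted p = 0.0346) higher after IL-5, 2 of 8 genes, where it called 1.34% of all genes higher. The edgeR adjusted p over the alternatives tried in edgeR stayed above 0.05 for both. The PBS libraries of the T cells decided several sizes. Without T cells PBS replicate 2 the values of Car12, Slc4a2 and Slc4a5 were 0.38, 0.32 and 0.31, and that of Aqp1 was 2.19. Without T cells PBS replicate 1 they were 1.96, 2.09 and 1.53, and that of Aqp1 was 0.62. Clic6 turned to -0.365 without T cells IL-5 replicate 2, and Slc12a2 was 0.64 without T cells IL-5 replicate 1.

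Per Ttr count the T cell groups overlapped for each of the 8 genes, a scale added to this comparison after the data were seen. Kcnj13 averaged 185.9 counts per 10000 Ttr counts after IL-5 and 185.7 after PBS, and Kcne2 37.97 after IL-5 and 34.5 after PBS. Clic6 was lower after IL-5, at 32.1 against 38.8 after PBS, and the other 7 means were higher. The median log2 difference of the 8 genes was 0.27 on this scale, and that of all genes counted in every T cell library -0.78. No gene of the 8 was without overlap in either direction, where 5.20% of all genes were higher and 41.7% lower without overlap.

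Other measures moved with the T cell values. The summed choroid plexus markers were 114821 and 117600 CPM after IL-5 and 85362 and 59861 CPM after PBS. Of these markers 15 of 15 had a positive log2 fold change, with a median of 0.77 and 0 past the threshold. An unadjusted p under 0.05 in edgeR was found for 7 of the 15. Ttr measured 89983 and 91511 CPM after IL-5 and 65068 and 45089 CPM after PBS, a difference of 0.77 in log2 (SE 0.18). The summed T cell markers ran the other way, at 3495 and 4458 CPM after IL-5 and 5661 and 6357 CPM after PBS. The part of either in the result was not tested.

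**Figure D4:**
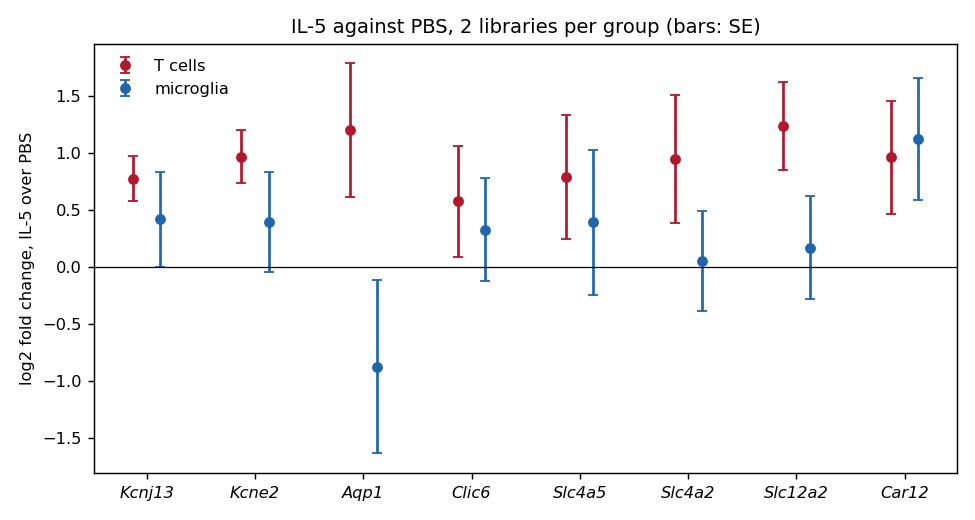
Log2 fold change of IL-5 over PBS (vertical axis) for the 8 genes in T cells (red) and in microglia (blue), each from a fit of 4 libraries, with bars of 1 SE. With TMM scaling all T cell values lie above 0, between 0.58 and 1.24, and Aqp1 in microglia lies below 0 at -0.87, with none past the threshold in edgeR. Per Ttr count Clic6 turns in T cells, and 7 of the 8 genes are lower after IL-5 in microglia. Their median in microglia is then -0.43, against -0.83 for all genes.

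In microglia 0 of 8 genes passed in the same comparison (edgeR called 0% of 13764 genes, 617 of which had an unadjusted p under 0.05, and DESeq2 called 39 higher and 80 lower, none of them among the 8). Per Ttr count 7 of the 8 genes were lower after IL-5, with a median of -0.43 against -0.83 for all genes. With TMM scaling the median log2 fold change of the 8 genes was 0.36, against -0.02 for all genes tested. Car12 had the largest at 1.12 (SE 0.54, edgeR adjusted p = 0.964), with its IL-5 libraries higher than its PBS libraries, and it stayed between 0.86 and 1.43 when each library was left out. Kcnj13 (0.42, SE 0.42), Kcne2 (0.40, SE 0.44), Slc4a5 (0.40, SE 0.64) and Clic6 (0.33, SE 0.45) were within about 1 SE of 0, as were Slc12a2 (0.17, SE 0.45) and Slc4a2 (0.053, SE 0.44). Aqp1 had a negative value of -0.87 (SE 0.76), with both IL-5 libraries below both PBS libraries. Groups without overlap on the TMM scale were 2 of 8 higher (Car12 and Slc4a5) and 1 of 8 lower (Aqp1), near the 17.4% and 21.1% of all genes. For Slc4a5 the separation was lost in plain CPM, at 21.4 and 24.0 CPM after IL-5 and 23.4 and 15.1 CPM after PBS.

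Per Ttr count most of the 8 genes were lower after IL-5 in microglia, where Ttr itself was higher. Ttr measured 55913 and 59213 CPM after IL-5 and 39917 and 33495 CPM after PBS. Its log2 fold change was 0.81 (SE 0.49, edgeR adjusted p = 0.974). Kcnj13 averaged 50.7 counts per 10000 Ttr counts after IL-5 and 64.1 after PBS, and Slc12a2 20.9 after IL-5 and 33.1 after PBS. Of the 8 means 7 were lower after IL-5, and Car12 was higher, at 7.23 against 5.97 after PBS. Both IL-5 libraries lay below both PBS libraries for 4 of 8 genes (Aqp1, Slc4a5, Slc4a2 and Slc12a2), where 42.6% of all genes did so. The reverse held for 0 of 8 genes and 4.27% of all. The median log2 difference of the 8 genes was -0.43 on this scale, and that of all genes counted in every microglia library -0.83.

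Slc12a2 and Slc4a2 took negative values in microglia with library-size scaling (-0.029 and -0.12) and without microglia IL-5 replicate 1 (-0.355 and -0.19). The summed choroid plexus markers in microglia were 61177 and 65109 CPM after IL-5 and 43875 and 36714 CPM after PBS, with 14 of 15 markers positive, a median of 0.81 and 0 past the threshold. The sums over the 8 transport genes were 625 and 922 CPM after IL-5 and 769 and 576 CPM after PBS in microglia, and 3201 and 3393 CPM after IL-5 and 2154 and 1633 CPM after PBS in T cells.

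The difference of the IL-5 responses, T cells minus microglia, was tested as an interaction over all 8 libraries. No member passed in edgeR, which called 0% of 15397 genes (798 had an unadjusted p under 0.05), and DESeq2 called 174 genes higher and 74 lower, with none of the 8 among them. Aqp1 had the largest difference, 2.03 (SE 0.95, edgeR adjusted p = 0.904), and it was 1.44 to 3.05 when each library was left out. Slc12a2 had 1.04 (SE 0.65), Slc4a2 0.87 (SE 0.76) and Kcne2 0.53 (SE 0.54), and Car12 had -0.19 (SE 0.70).

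Other genes of cerebrospinal fluid secretion, 24 in a list written from general knowledge, were set beside these 8. Between T cells and microglia the median log2 fold change of the 24 was 0.63. Of them 4 were called higher in T cells and 0 lower, where 8.05% of all genes tested were called higher and 11.4% lower. The 4 were Stk39, a kinase that activates the Slc12a2 cotransporter (1.84, SE 0.25, edgeR adjusted p = 0.00129), Car2, the cytosolic carbonic anhydrase (1.17, SE 0.25, edgeR adjusted p = 0.0106), Slc12a7, a potassium-chloride cotransporter (4.29, SE 1.101, edgeR adjusted p = 0.0243), and Slc4a10, a sodium-dependent bicarbonate transporter of the choroid plexus (0.97, SE 0.29, edgeR adjusted p = 0.0424). Slc12a7 had only 3 to 216 counts in the microglia libraries. Stk39 measured 325.1 and 342.5 CPM in T cells after IL-5 and 209.3 and 240.7 CPM in T cells after PBS, against 51.3 and 52.3 CPM in microglia after IL-5 and 44.4 and 32.7 CPM in microglia after PBS. The most abundant genes of the list were Fxyd1 and Atp1b3, Car2 and Atp1b1, of which Fxyd1, a regulator of the sodium pump, had a negative value (-0.99, SE 0.32, edgeR adjusted p = 0.0569). Atp1b1 and Atp1b3 are beta subunits of that pump. After IL-5, 0 of 24 genes tested passed in T cells and 0 of 23 in microglia, with medians of 0.20 in T cells and 0.28 in microglia and 14 positive values in each. In T cells 3 of the 24, and in microglia 2 of the 23, had an unadjusted p under 0.05. Of the choroid plexus markers 6 of 15 were called higher in T cells and 0 lower, Enpp2, Kl, Prlr, Tmem72, Cldn2 and F5, while Ttr and the folate receptor gene Folr1 were not.

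The 8 genes were averaged into a profile over the 8 libraries, after each was standardised on TMM-scaled log2 CPM, and the 11460 genes with a mean of at least 5 CPM were ranked by Pearson correlation with it, as a description in which all points share the division between the sorted populations. The 6 genes most like it were Rlbp1 (r = 0.952), which encodes a retinaldehyde-binding protein, Bdh2 (0.940), a cytosolic dehydrogenase, Gpx8 (0.939), a peroxidase of the endoplasmic reticulum, Prelp (0.937), a matrix protein, Zfp37 (0.928), a zinc finger protein, and Chrnb4 (0.925), a nicotinic receptor subunit. Rlbp1 measured 78.2 and 68.9 CPM in T cells after IL-5 and 34.9 and 16.01 CPM in T cells after PBS, with 4.59 and 9.55 CPM in microglia after IL-5 and 10.1 and 3.42 CPM in microglia after PBS. Chrnb4 had 37.1 and 11.4 CPM in T cells after IL-5 and at most 0.0777 CPM in the other 6 libraries. The 15 choroid plexus markers were spread widely, from Calml4 (0.914, rank 8) and Otx2 (0.901, rank 14) to Msx1 (0.312, rank 3940). Among them Kl was at rank 57 (0.833), Folr1 at rank 1102 (0.608) and Ttr at rank 2290 (0.484, and 0.844 with scaling by library size).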

How the data were processed

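RNA of sorted cells was sequenced in 8 libraries. The authors deposited a table of unscaled read counts by gene symbol, judged from its values, which are integers. STAR 2.5.3a, Cufflinks 2.0 and DESeq2 1.1 with builds mm10 and GRCm38 are named in the submitters' processing notes, and the counting tool and strand setting are not given in the sources used here. Of 24953 entries, 2 summary entries (reads outside genes, 15.2% to 25.5% of each column, and ambiguous reads) and 27 genes with 53 cells that were not numbers were left out.

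Counts were tested with edgeR 4.0.16 (R 4.3.3): TMM, filterByExpr with a minimum count of 10, quasi-likelihood fit with robust dispersion, two-sided tests, Benjamini-Hochberg adjustment over all genes tested. Each IL-5 comparison used its 4 libraries, and the cell comparison and the interaction all 8. The SE is the fold change over the root of F. The fit recovered changes placed in simulated counts, but these were larger than most fold changes of the 8 genes. How well changes of the sizes seen here are found was not tested. DESeq2 1.42.0 was an alternative. Named genes were all 8 members, the called and the 4 most abundant genes of the 24 other transport genes, the leading 2 of each marker list (some marker genes and the sums that hold them are not reported here), and the 6 of most similar profile. Members and lists were chosen with earlier results of these data known. Figures used matplotlib 3.10.9.

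Read counts without molecular identifiers are not independent molecules. The labels give no sorting or sequencing date, so a batch cannot be told apart from cell type or treatment.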

Additional observations from a re-analysis of the deposited data

Results flagged for a closer look

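Aqp1 was singled out because its IL-5 and PBS groups lay apart in opposite directions in the cell types, though neither comparison passed in edgeR. Both T cell IL-5 libraries (104.4 and 89.8 CPM) lay above both T cell PBS libraries (21.8 and 65.8 CPM). Both microglia IL-5 libraries (6.37 and 15.5 CPM) lay below both microglia PBS libraries (19.4 and 23.2 CPM). This separation is the rule that chose the gene and is no further support. With TMM scaling 18.1% of all genes tested were higher without overlap in T cells, and 21.1% lower in microglia. The share of genes with both was not counted. The difference of the log2 fold changes was 2.03 (SE 0.95), and the interaction test did not pass (edgeR adjusted p = 0.904, unadjusted 0.0605). Per Ttr count the T cell groups overlapped, with 11.6 and 9.81 counts per 10000 Ttr counts after IL-5 against 3.35 and 14.6 after PBS. Its counts ranged from 150 in microglia IL-5 replicate 1, the library that stood apart, to 3117. Without that library the microglia value was -0.48 and the difference 1.67.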

How the results depend on the processing

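Over the alternatives, 398 fold changes of the 8 genes kept their direction and their side of the threshold, 18 changed sign and 8 newly passed. Between T cells and microglia, Kcnj13 and Car12 passed under all 17 alternatives (1.37 to 2.31 and 1.87 to 3.13). The calls were 2382 higher and 2724 lower in DESeq2, 2790 and 868 with library size only (6 of the 8 genes), 396 and 709 within PBS and 383 and 883 within IL-5. Leaving out 1 library gave 750 to 1724 higher, lowest without microglia PBS replicate 2, with 2 or 3 of the 8 genes. Slc12a2 turned to 0.47 with library size only and 0.20 within IL-5, Slc4a2 to -0.078 within PBS, with a range of -0.20 to 0.67 when leaving out 1 library. The mean log2 level, T cells minus microglia, was lower per Ttr count than on plain CPM, the scale it was compared with here. Per Ttr count it was 1.74 for Kcnj13, 0.55 for Kcne2, 0.85 for Slc4a5, 2.43 for Car12 and -0.17 for Slc12a2. In T cells the IL-5 calls were 184 higher and 55 lower in DESeq2 (2 of the 8 genes), 2 higher with no filter and 2 higher with all 8 libraries in 1 fit. Leaving out 1 library gave 0 to 1 higher, and Clic6 ranged from -0.365 to 1.13. In microglia DESeq2 called 39 higher and 80 lower. Leaving out 1 library gave 0 to 532 higher and 0 to 723 lower, both highest without microglia IL-5 replicate 2, with none of the 8 genes. Slc4a2 was -0.12 and Slc12a2 -0.029 with library size only. The leave-one-out ranges in microglia were -0.046 to 0.83 for Clic6, -0.19 to 0.29 for Slc4a2, -0.355 to 0.56 for Slc12a2 and -0.049 to 0.75 for Kcne2. The difference of responses had 174 higher and 74 lower in DESeq2, 27 and 4 with no filter, and 0 to 178 and 0 to 54 when leaving out 1 library, highest without microglia IL-5 replicate 2. There Clic6 ranged from -0.70 to 0.75, Slc4a5 from -0.11 to 1.08 and Car12 from -0.76 to 0.79. On the library-size scale the correlations with the profile were 0.984 for Rlbp1, 0.985 for Bdh2, 0.987 for Gpx8, 0.978 for Prelp, 0.871 for Chrnb4 and 0.844 for Ttr. The replicate block gave 1090 higher and 1571 lower between T cells and microglia and changed no call of the 8 genes. Deviations from the group means of IL-5 replicate 1 and PBS replicate 1 had a correlation of 0.01 in microglia and 0.011 in T cells. Whether T cell and microglia samples with the same number came from the same mice was not tested. The cause of these changes was not tested. With 1 library left out, the lone library is assumed to vary like the other groups. Each of the 8 genes had 150 counts or more in every library.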
